A study of Brachypodium distachyon with 45 samples.

Results

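The deposited gene table lists 33852 loci, and 1015 of them (3.00%) carry no Bradi identifier, the name that the reference annotation gives a Brachypodium distachyon gene. These 1015 were taken as all loci whose name field holds only a dash, and they are described here by their tracking numbers and positions. Such loci arise when sequenced fragments from the leaf RNA are assembled into transcripts at places where the annotation has no gene. In plants, unannotated transcripts of this kind include long non-coding RNAs (lncRNAs), precursors of microRNAs (miRNAs) and host transcripts of small nucleolar RNAs (snoRNAs). They also include expressed pseudogenes, transposon sequence and protein-coding genes that are missing from the annotation.

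Leaves of 3 inbred lines were sequenced: ABR8, which the labels class as drought tolerant, KOZ1, classed as susceptible, and ABR4, classed as intermediate. Plants were watered until 32 days after germination (T0), and water was then withheld from the drought groups, and leaves of drought plants and of watered controls were taken 4 days (T1) or 8 days (T2) later. This gives for each line a T1 drought group, a T2 drought group and control groups at T0, T1 and T2, which is 15 groups of 3 libraries, 45 libraries in all, each from its own plant. Every group is a wild inbred line without a transgene, and each line stands alone for its class of tolerance. The treatment recorded for 15 samples (12 of ABR8 and 3 of KOZ1) disagrees with the sample names, and the names were followed.

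The table gives each locus in FPKM, a fragment count scaled to transcript length and to the number of mapped fragments, as a single value per group that pools its 3 libraries, with a lower and an upper 95% limit. All errors below come from these limits, since the values used are per group, and no standard deviation between plants can be given. Before any comparison, the T1 drought groups of ABR8 and ABR4 stood apart. All 46 loci found only in ABR4 among the other groups were above 0 in ABR8 T1 drought, where their median was 1.22 FPKM, and all 144 found only in ABR8 were above 0 in ABR4 T1 drought, with a median of 1.59 FPKM. In the remaining groups of the line that lacks them both sets had a median of 0, but the rule that chose them required under 0.1 FPKM there. Relative to the T1 control of the line that has them, the median locus reached 0.323 in ABR8 T1 drought (quartiles 0.267 and 0.408) and 0.337 in ABR4 T1 drought (quartiles 0.282 and 0.415). These 2 groups were therefore left out of every statement on genotype, age and drought, which leaves 13 groups.

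The loci without an identifier were short and mostly simple. Of the 1015, 863 had an interval of their own, while 152 shared an interval with other loci (87 with an annotated locus), so that their own ends are not known. The 863 intervals had a median length of 1125 bp (quartiles 686 and 2438 bp), against 2625 bp (quartiles 1341 and 4569 bp) for annotated loci. The shortest was XLOC_030501, with 105 bp on chromosome 4 (23339452 to 23339556), and the longest XLOC_026895, with 43506 bp on chromosome 4 (38139168 to 38182673). A group of 41 intervals (4.75%) was under 200 bp, compared with 0.183% of annotated loci. A single transcription start group was listed for 876 of the 1015 loci (86.3%), against 79.0% of annotated loci.

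**Figure D1:**
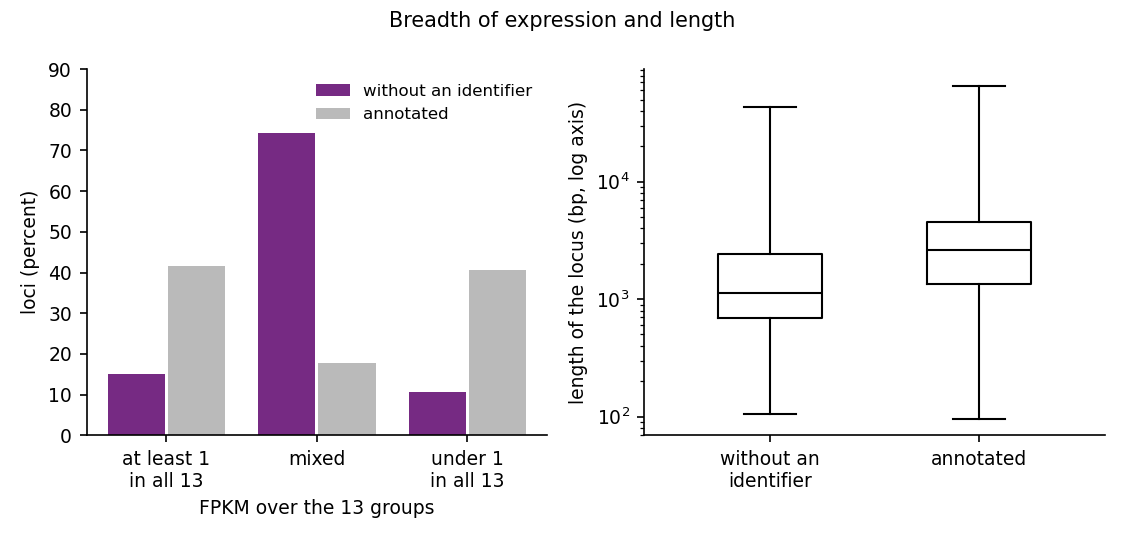
Left, percent of loci by their FPKM over the 13 groups, for loci without an identifier (purple) and annotated loci (grey). Right, length of loci with an interval of their own on a log axis, with the median, the quartiles (box) and the lowest and highest value (whiskers). Most loci without an identifier (74.4%) were at or above 1 FPKM in some groups and below it in others, against 17.7% of annotated loci, and their median length was 1125 against 2625 bp.

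All 1015 loci lay on the 5 chromosomes, with 266 on chromosome 1, 199 on chromosome 2, 226 on chromosome 3, 200 on chromosome 4 and 124 on chromosome 5. They made up between 2.66% (chromosome 2) and 3.75% (chromosome 5) of the loci of a chromosome. Each chromosome was divided into 5 equal segments. The middle segment, where the centromere and its gene-poor surroundings usually lie, held 232 of them (22.9%), against 13.8% of annotated loci. The segments at both ends held 373 (36.7%), against 47.5% of annotated loci. The nearest annotated locus was a median of 2071 bp away, with 271 of the 863 (31.4%) within 1000 bp and 68 (7.88%) over 10000 bp away. The tracking numbers run along each chromosome in 3 passes, and the last pass holds 435 loci without an identifier and only 2 annotated ones. The loci of that pass with their own interval had a median of 718 bp, compared with 2190 bp for those of the earlier passes. The table gives no strand, so reads from the opposite strand of a neighbouring gene cannot be told apart from reads of these loci.

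The gene table of RefSeq for the same assembly (v3.0) names genes at many of these places. A RefSeq gene overlapped 380 of the 863 intervals (44.0%). The genes were lncRNAs for 212 loci, protein-coding genes for 142 and pseudogenes for 22, and a locus over several genes counts under each. Small RNA genes were overlapped by 17 loci, among them 6 with a miRNA gene and 6 with snoRNA genes, which guide the chemical modification of ribosomal RNA. Of the 212 loci with an lncRNA, 199 lay with at least 50% of their length inside it. The 483 loci without any RefSeq gene were shorter (median 862 bp) than the 380 with one (median 1977 bp). In every one of the 13 groups 8.49% of them reached 1 FPKM, against 25.8% of those with a RefSeq gene. These are descriptions of overlap, since RefSeq gives a position and a class here but no strand.

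The typical level of the loci was low. Their mean FPKM over the 13 groups had a median of 1.29 (quartiles 0.593 and 3.1), against a median of 1.17 for annotated loci with a wider range (quartiles 0.0409 and 8.62). None of the 1015 was listed at 0 in all 15 groups, while 4006 annotated loci were. Loci without an identifier are listed only where fragments were assembled, while annotated loci are listed whether expressed or not. The contrasts with annotated loci in this paragraph depend in part on that. In all 13 groups 152 loci (14.98%) reached 1 FPKM, against 41.6% of annotated loci, and 108 (10.6%) stayed under 1 FPKM, against 40.6%. The remaining 755 crossed that level from group to group, as the bars for breadth of expression show.

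A few very short loci carried most of the summed FPKM. FPKM is scaled to transcript length, so this is not a share of the sequenced fragments, which cannot be recovered here. The 41 intervals under 200 bp held 77.1% of the summed FPKM of the 1015 loci over the 13 groups, and the 10 loci with the highest means were all among them. XLOC_009690, a 113 bp locus on chromosome 1 (1123008 to 1123120), alone held 45.6%, with its lowest FPKM, 2535, at T0 in ABR8 and its highest, 10586, in the watered KOZ1 plants at T2. XLOC_024731 (157 bp, chromosome 3, 22299443 to 22299599) had a mean of 1007 FPKM and a range of 661 to 1327, and XLOC_030518 (145 bp, chromosome 4, 32582995 to 32583139) a mean of 701 and a range of 508 to 1015. XLOC_033811 (107 bp, chromosome 5, 10337300 to 10337406) averaged 586 FPKM and was listed at 0 in every ABR8 group used. XLOC_030501, which overlaps the ribosomal RNA gene LOC112268973, averaged 370 FPKM and varied between 93.6 in the ABR8 T1 control and 1403 in the ABR4 T1 control. The limits of such loci were narrow in places, with a standard error under 0.1 of FPKM for 39 of 341 values above 0 (11.4%). No value of the longer intervals was as narrow, and their median standard error was 0.453 of FPKM. Calls that rest on loci under 200 bp are marked as such below.

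Fewer of the loci were listed at 0 in ABR8 than in KOZ1 or ABR4. In the ABR8 groups between 162 and 195 of the 1015 loci were listed at 0, in the KOZ1 groups between 331 and 354, and in the ABR4 groups between 324 and 348. For annotated loci the gaps between lines were smaller. ABR8 also had the fewest of them at 0 in the control groups (23.1% in ABR8 and 23.5% in KOZ1, against 25.9% in ABR4 at T0), while in T2 drought the shares were 25.9% in ABR8 and 24.9% in KOZ1, against 26.8% in ABR4. In the ABR8 and ABR4 T1 drought groups, which were left out, 74 and 81 loci were listed at 0.

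**Figure D2:**
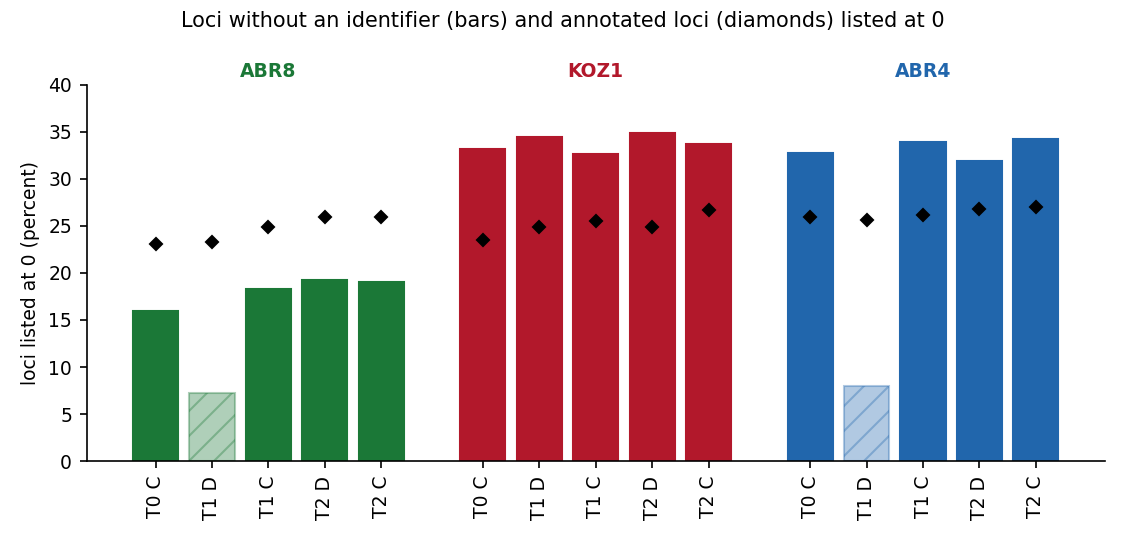
Percent of the 1015 loci without an identifier listed at 0 (bars) and of the 32837 annotated loci listed at 0 (diamonds) in each of the 15 groups (C control, D drought). The bars stand between 16.0% and 19.2% in ABR8 and between 31.9% and 34.9% in KOZ1 and ABR4, apart from the hatched T1 drought groups of ABR8 (7.29%) and ABR4 (7.98%), which were left out.

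A locus was counted as restricted to a genotype when it reached 1 FPKM in every used group of that line and stayed under 0.1 FPKM in every used group of the other lines, and as missing from a genotype in the reverse case. By this rule 144 loci were found only in ABR8, 29 only in KOZ1 and 46 only in ABR4, while 39 were missing from ABR8 alone, 25 from KOZ1 alone and 23 from ABR4 alone. Together 306 of the 1015 loci (30.1%) had such a pattern, against 427 of the 32837 annotated loci (1.30%). These shares are not like for like, since annotated loci are listed whether expressed or not. Of the annotated loci 40.6% stayed under 1 FPKM in all 13 groups and could have no pattern, against 10.6% of the loci without an identifier. Of the loci without an identifier 14.2% were found only in ABR8, 2.86% only in KOZ1 and 4.53% only in ABR4. ABR8 also led among annotated loci, with 108 found only in ABR8 (0.329%), 70 only in KOZ1 (0.213%) and 38 only in ABR4 (0.116%). Most restricted loci were listed at 0 in every group that lacks them: 106 of the 144 in ABR8, 20 of the 29 in KOZ1 and 33 of the 46 in ABR4. Counts of this kind are descriptions without a test. Just inside the rule, the lowest level of an ABR8 locus was 1.08 FPKM, and just outside it 0.975 FPKM. On the side of absence, the highest level of an ABR8 locus was 0.0879 FPKM just inside and 0.119 FPKM just outside.

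**Figure D3:**
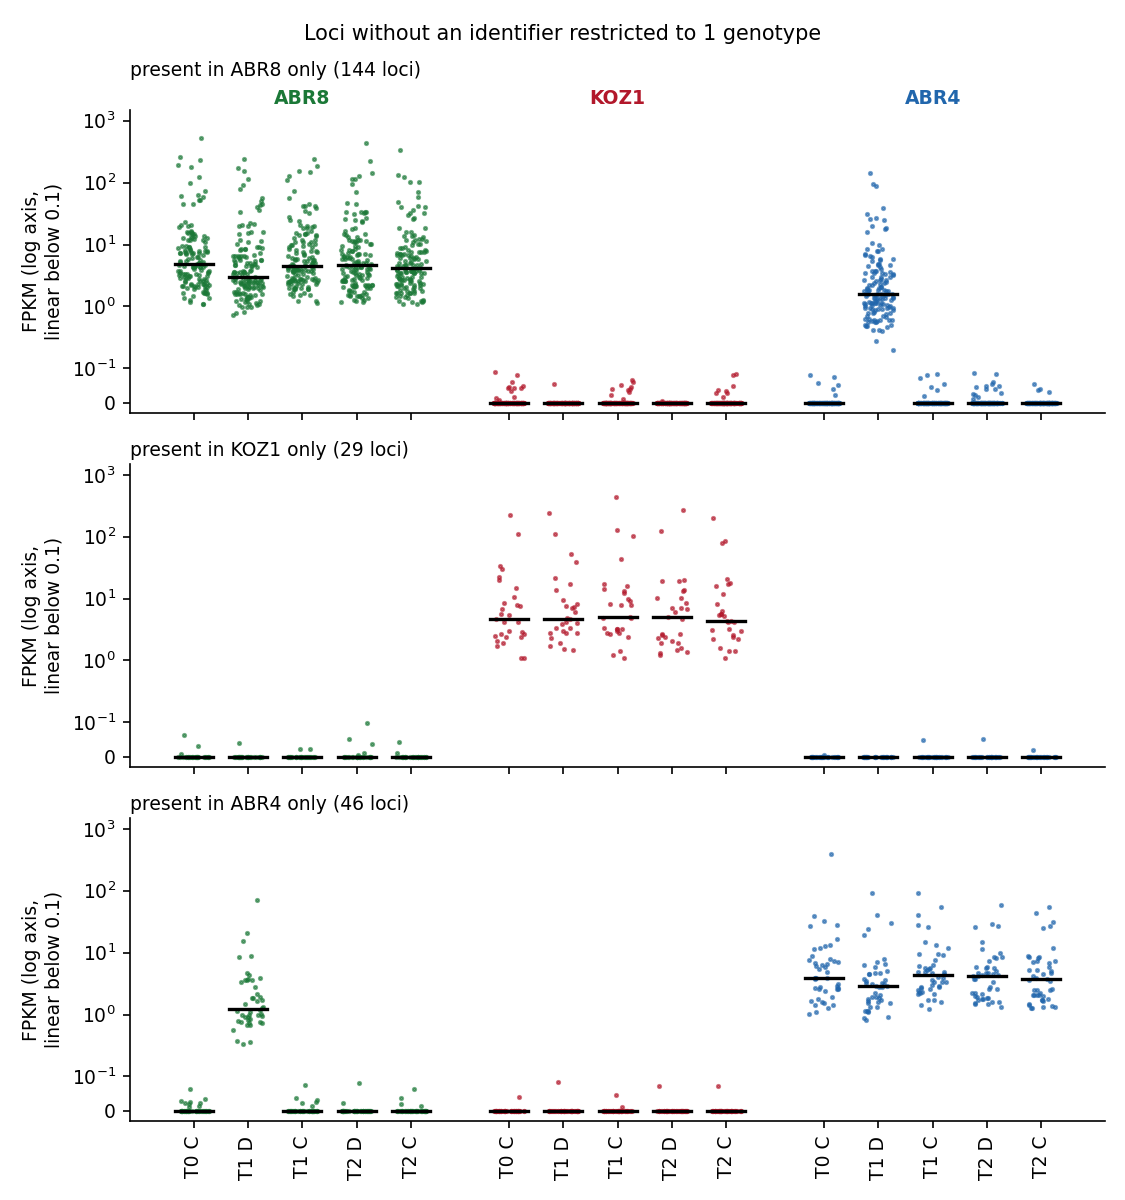
FPKM of the loci found only in ABR8 (144), only in KOZ1 (29) and only in ABR4 (46) in each of the 15 groups, with 1 point per locus and the median as a black bar, on an axis that is logarithmic above 0.1 and linear below. In their own line the medians lie between 3.73 and 5.12 FPKM outside the left-out T1 drought groups, and the medians of the other lines are 0 except in ABR4 T1 drought (1.59, upper panel) and ABR8 T1 drought (1.22, lower panel).

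The ABR8 loci were spread over the genome, with 41, 31, 29, 26 and 17 on chromosomes 1 to 5, and their intervals were short, with a median of 729 bp. Among them 77 belonged to the last numbering pass and 20 were under 200 bp. Their medians in ABR8 were 4.87 FPKM at T0, 4.57 in the T1 control, 4.59 in T2 drought and 4.15 in the T2 control. The rule asked for at least 1 FPKM in each of these groups, so loci that crossed this level with time were not counted. The highest in FPKM were 3 short loci. XLOC_017226 (116 bp, chromosome 2, 26626163 to 26626278) had 531 FPKM at T0, 242 in the T1 control, 439 in T2 drought and 340 in the T2 control of ABR8. XLOC_009793 (140 bp, chromosome 1, 70474909 to 70475048) lay between 134 and 236 FPKM in these groups, and XLOC_009722 (123 bp, chromosome 1, 27565757 to 27565879) between 102 and 264 FPKM. All were listed at 0 in every KOZ1 group and in the 4 ABR4 groups used.

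The loci of the other lines followed the same form. The median interval was 831 bp for the loci found only in KOZ1 and 1175 bp for those found only in ABR4. The strongest KOZ1 loci were XLOC_005246 (122 bp, chromosome 1, 4037919 to 4038040), with 124 to 433 FPKM in KOZ1, XLOC_011052 (284 bp, chromosome 2, 18279617 to 18279900, in the lncRNA LOC104582624), with 86.5 to 268 FPKM, and XLOC_030525 (173 bp, chromosome 4, 39355088 to 39355260), with 20.0 to 102 FPKM. They were listed at 0 in all other groups. XLOC_011052 had 268 FPKM in KOZ1 T2 drought and 86.5 FPKM in the T2 control, which was not called. Of the ABR4 loci, XLOC_024748 (128 bp, chromosome 3, 35074091 to 35074218) had 394 FPKM at T0, 90.3 in the T1 control, 8.30 in T2 drought and 27.2 in the T2 control of ABR4. XLOC_009692 (151 bp, chromosome 1, 3421681 to 3421831) held between 28.8 and 54.7 FPKM in the same groups, and XLOC_028320, whose interval is shared by 7 loci, between 26.6 and 58.6 FPKM.

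Loci missing from a single line had medians close to those of the restricted loci, of 4.29 FPKM where present for those missing from ABR8, 3.62 for KOZ1 and 4.27 for ABR4. Besides XLOC_033811, the strongest missing from ABR8 were XLOC_012540 (165 bp, chromosome 2, 47185238 to 47185402; 20.3 to 58.7 FPKM in KOZ1 and 9.43 to 29.0 in ABR4) and XLOC_007314 (5406 bp, chromosome 1, 35666524 to 35671929), which lies at the lncRNA LOC100834692. XLOC_007314 had at most 0.0886 FPKM in ABR8, against 13.1 to 41.0 FPKM in KOZ1 and 17.4 to 23.5 FPKM in ABR4. Missing from KOZ1 were XLOC_017193 (138 bp, chromosome 2, 3666639 to 3666776), XLOC_002971 (233 bp, chromosome 1, 46556091 to 46556323) and XLOC_024456 (3310 bp, chromosome 3, 56539762 to 56543071). XLOC_024456 overlaps the protein-coding gene LOC112268559 and reached at most 0.0434 FPKM in KOZ1, against 6.48 to 9.79 FPKM in ABR8 and 13.4 to 14.7 FPKM in ABR4. Missing from ABR4 were XLOC_009755 (115 bp, chromosome 1, 44022214 to 44022328), XLOC_009756 (175 bp, chromosome 1, 44022817 to 44022991) and XLOC_009720 (740 bp, chromosome 1, 26718234 to 26718973). XLOC_009755 and XLOC_009756 lie 488 bp apart and were both listed at 0 in the 4 ABR4 groups used.

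The neighbours of the restricted and missing loci were described by the same patterns. Of the 281 such loci with an interval of their own, 9 had a nearest annotated locus of the same pattern, and 103 (36.7%) had one that reached 1 FPKM in all 13 groups. That share was 34.9% for the 582 loci without a pattern. Within 10000 bp of each other lay 112 pairs of neighbouring loci without an identifier. Both loci had a pattern in 22 of these pairs, and in 21 pairs it was the same pattern. A neighbouring pair may belong to the same transcribed stretch, so its loci are not independent.

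Differences between the lines before drought were tested at T0, where all plants were watered, by a z-test that took FPKM on a natural log scale and its error from the deposited limits, with Benjamini-Hochberg adjustment over all loci. Calls needed a 2-fold or larger change and an adjusted p no higher than 0.05, and a locus at 0 in 1 group was tested on the difference in FPKM. ABR8 was higher than ABR4 at 53 of the 961 loci without an identifier tested (5.52%, against 2.63% of all loci) and lower at 39 (4.06%, against 1.43%). KOZ1 was higher than ABR4 at 23 of 809 loci (2.84%, against 1.37% of all loci) and lower at 24 (2.97%, against 0.714%). ABR8 was higher than KOZ1 at 36 of 960 loci (3.75%, against 0.987% of all loci) and lower at 32 (3.33%, against 0.983%). Loci under 200 bp gave 6 of the calls for ABR8 over ABR4, 2 for KOZ1 over ABR4 and 4 for ABR8 over KOZ1. Many calls set a level against a listing at 0. This held for 47 of the 53 loci higher and 19 of the 39 lower in ABR8 than in ABR4, for 20 of the 23 higher and 19 of the 24 lower in KOZ1 than in ABR4, and for 32 of the 36 higher and 14 of the 32 lower in ABR8 than in KOZ1. When only loci above 0 in both groups were tested, the balance turned toward lower levels in ABR8, with 6 higher and 19 lower than in ABR4 and 4 higher and 18 lower than in KOZ1. KOZ1 over ABR4 then had 3 higher and 5 lower. Over all loci the same setting gave 592 higher and 319 lower for ABR8 over ABR4. It gave 194 and 218 for ABR8 over KOZ1, and 283 and 144 for KOZ1 over ABR4. The median log2 difference over loci above 0 in both groups lay between -0.02 and 0.06, against 0.00 to 0.03 over all loci.

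The differences held at the later times, which the calls did not use. Of the 53 loci called higher in ABR8 than in ABR4 at T0, 51 were at least 2-fold higher in the T1 and in the T2 controls, and of the 39 lower loci 37 were lower in the same way. For KOZ1 over ABR4 these numbers were 22 of 23 and 23 of 24, and for ABR8 over KOZ1 they were 36 of 36 and 32 of 32. In all, 139 of the 1015 loci (13.7%) were called in at least 1 of the 3 genotype comparisons, against 4.11% of annotated loci. These shares too are not like for like, since annotated loci are listed whether expressed or not.

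Among loci at 1 FPKM or more in both lines, several of the largest differences lay at lncRNA positions. XLOC_019154 (818 bp, chromosome 3, 32833658 to 32834475), at the lncRNA LOC104583685, had 46.3 FPKM in KOZ1 at T0, against 4.66 FPKM in ABR4 (log2 3.31 ± 0.61 SE, adjusted p 1.8e-05 by the z-test), and 3.75 FPKM in ABR8. No ABR8 or ABR4 group was above 7.31 FPKM. XLOC_001875 (1017 bp, chromosome 1, 25791246 to 25792262), at the lncRNA LOC104585307, had 1.36 FPKM in ABR8, against 14.8 FPKM in KOZ1 (log2 -3.45 ± 0.83 SE, adjusted p 0.0039). XLOC_003077 (2647 bp, chromosome 1, 48207250 to 48209896), at the lncRNA LOC100839379, had 2.50 FPKM in ABR8, against 13.5 FPKM in ABR4 (log2 -2.43 ± 0.79 SE). XLOC_028467 (737 bp, chromosome 4, 11779963 to 11780699), at the lncRNA LOC104584467, had 0.0972 FPKM in ABR8 and 88.2 FPKM in KOZ1, against 214 FPKM in ABR4. The order ABR4, KOZ1, ABR8 of this locus stayed in every control group.

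Other large differences lay at protein-coding or pseudogene positions. XLOC_004968 (2918 bp, chromosome 1, 1000108 to 1003025), at the protein-coding gene LOC100828940, had 12.4 FPKM in ABR8, against 2.58 FPKM in KOZ1 (log2 2.26 ± 0.54 SE, adjusted p 0.0031), and was missing from ABR4. XLOC_015346 (4599 bp, chromosome 2, 31272589 to 31277187), at LOC100822112, had 1.13 FPKM in KOZ1 and 0.635 FPKM in ABR8, against 6.15 FPKM in ABR4. XLOC_001443 (2571 bp, chromosome 1, 19207294 to 19209864), at LOC100823521, had 1.76 FPKM in KOZ1, against 5.97 FPKM in ABR4 (log2 -1.76 ± 0.53 SE). XLOC_008921 (15667 bp, chromosome 1, 64759453 to 64775119), at the pseudogene LOC100841702, had 18.3 FPKM in ABR8, against 4.73 FPKM in ABR4 (log2 1.95 ± 0.57 SE), and 12.3 FPKM in KOZ1. Without RefSeq genes, XLOC_017237 (1132 bp, chromosome 2, 32069159 to 32070290) had 1.06 FPKM in ABR8, against 7.47 FPKM in ABR4, and XLOC_033817 (806 bp, chromosome 5, 11951478 to 11952283) had 12.3 FPKM in ABR8, against 2.01 FPKM in KOZ1.

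Few of the loci were called for drought, and nearly all of them in KOZ1 at T2. There 10 of the 696 loci tested were higher in drought than in the control (1.44%, against 3.77% of all loci) and 11 were lower (1.58%, against 4.57%). The median log2 change over the 638 loci above 0 in both groups was -0.01, against 0.06 over all loci. Without a test, 98 of the 696 loci were at least 2-fold higher and 150 at least 2-fold lower. The median standard error was 0.453 of FPKM for loci of at least 200 bp, against 0.311 for annotated loci. The shares called were therefore reached at unlike precision. Of the 10 higher loci, 9 were above all 12 other groups used and 5 were above 10 times the highest of them. All 10 higher loci were above the 4 other KOZ1 groups. All 11 lower loci were below these 4 groups, but only 3 of them were below all 12 other groups used. At T1 in KOZ1, 1 of the 11 lower loci and none of the 10 higher ones had moved at least 2-fold in the same direction.

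Several of the higher loci were at or near 0 in most other groups. XLOC_029155 (641 bp, chromosome 4, 28780690 to 28781330) was listed at 0 in the 12 other groups and had 27.8 FPKM in KOZ1 T2 drought (limits 14.8 and 40.9; adjusted p 0.00084). XLOC_015435 (1709 bp, chromosome 2, 33299322 to 33301030), at the lncRNA LOC104582730, had 11.1 FPKM in KOZ1 T2 drought (limits 3.72 and 18.4), against 0 in the control, and at most 0.369 FPKM elsewhere. XLOC_024769 (436 bp, chromosome 3, 56022751 to 56023186) had 27.0 FPKM in drought, against 1.04 FPKM in the control (log2 4.69 ± 1.07 SE, adjusted p 0.00041), and at most 2.22 FPKM elsewhere. XLOC_017754 (2419 bp, chromosome 3, 6138131 to 6140549), at the lncRNA LOC104583465, had 13.4 FPKM in drought, against 2.99 FPKM in the control (log2 2.16 ± 0.66 SE, adjusted p 0.015). It reached at most 0.468 FPKM in the ABR8 and ABR4 groups used.

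The other higher loci are named after their values were seen. XLOC_030511 (832 bp, chromosome 4, 28662139 to 28662970) had 24.1 FPKM in drought, against 0.202 FPKM in the control (log2 6.90 ± 1.48 SE), and at most 0.358 FPKM in the other groups. XLOC_017210 (1061 bp, chromosome 2, 13567316 to 13568376) lies within the protein-coding gene LOC106865951 and covers only 3.65% of it. This locus had 6.40 FPKM in drought, against 0.371 FPKM in the control, and was listed at 0 in every ABR8 and ABR4 group. XLOC_025699 and XLOC_030476, which lie 66 bp apart on chromosome 4 (13999282 to 14002671 and 14002738 to 14005053), had 1.88 and 3.46 FPKM in drought, against 0.315 and 0.470 FPKM in the control. XLOC_010452 (5526 bp, chromosome 2, 8913471 to 8918996), at the protein-coding gene LOC106866214 and missing from ABR8, had 3.58 FPKM in drought, against 1.34 FPKM in the control. The last of the 10, XLOC_017191, is the MIR159B locus described below.

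**Figure D4:**
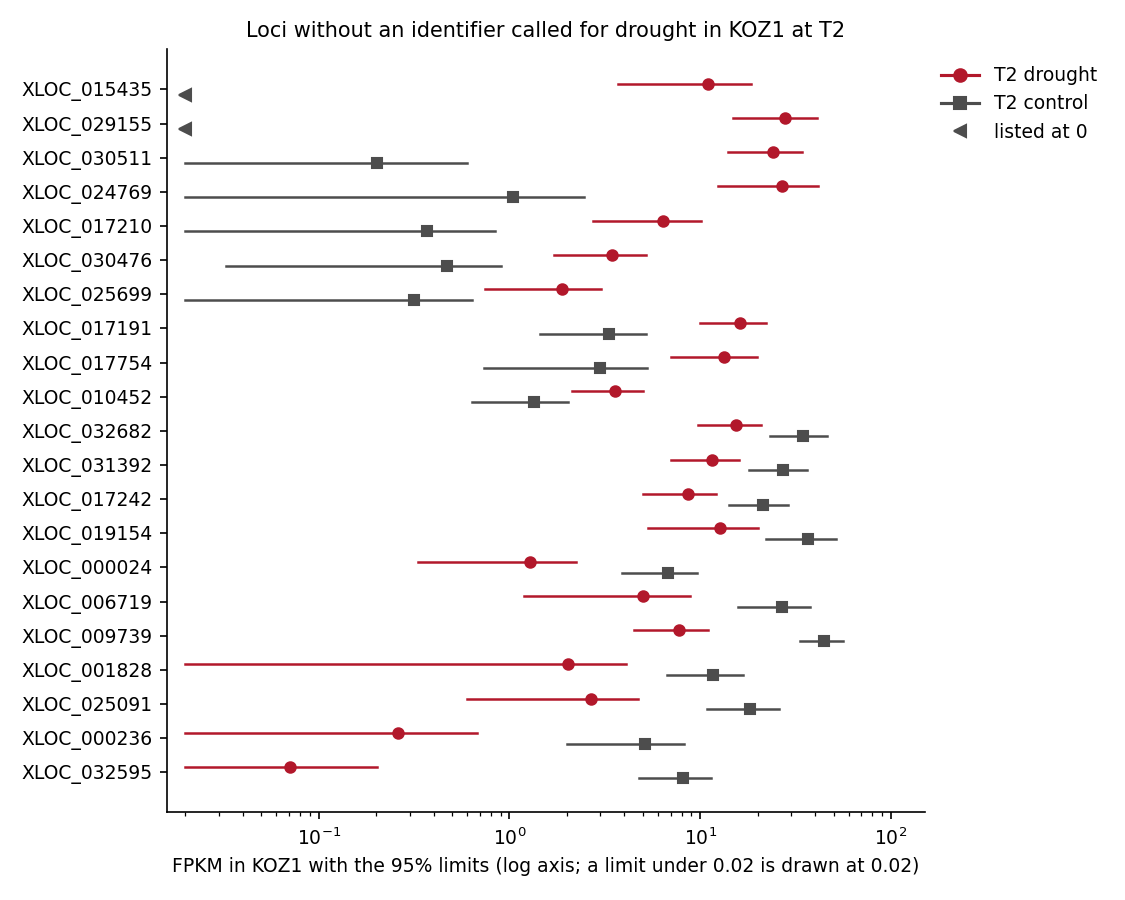
FPKM of the 21 loci called in KOZ1 at T2, in drought (red circles) and in the control (grey squares), with the deposited 95% limits as lines on a log axis and triangles for a listing at 0. The 10 higher loci are at the top and the 11 lower ones below, from 27.8 FPKM against 0 for XLOC_029155 to 0.0710 against 8.10 FPKM for XLOC_032595.

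The largest falls among loci at 1 FPKM or more in both groups were spread over different kinds of locus. XLOC_025091 (1112 bp, chromosome 4, 4010513 to 4011624), missing from ABR8, had 2.67 FPKM in drought, against 18.3 FPKM in the control (log2 -2.78 ± 0.64 SE, adjusted p 0.00051). XLOC_001828 (1492 bp, chromosome 1, 25246745 to 25248236), found only in KOZ1, lies within the pseudogene LOC100821157 and covers 17.1% of it. This locus had 2.03 FPKM in drought, against 11.7 FPKM in the control (log2 -2.53 ± 0.81 SE, adjusted p 0.025). Its neighbour XLOC_006719, 1427 bp away at the lncRNA LOC112271944 (25249664 to 25250472), had 5.03 FPKM, against 26.8 FPKM (log2 -2.41 ± 0.64 SE). The 150 bp locus XLOC_009739 (chromosome 1, 35981943 to 35982092) had 7.78 FPKM in drought, against 44.7 FPKM in the control (log2 -2.52 ± 0.36 SE).

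The remaining falls, also named after their values were seen, were those of XLOC_032595 (the MIR169H locus), XLOC_000236, XLOC_000024, XLOC_017242, XLOC_031392 and XLOC_032682. XLOC_000236 (1637 bp, chromosome 1, 2573401 to 2575037) had 0.259 FPKM in drought, against 5.14 FPKM in the control (log2 -4.31 ± 1.27 SE), and XLOC_000024 (2168 bp, chromosome 1, 315654 to 317821), at the lncRNA LOC106866568, had 1.28 FPKM, against 6.78 FPKM (log2 -2.40 ± 0.63 SE). XLOC_019154, the KOZ1-high lncRNA locus, had 12.7 FPKM in drought, against 36.8 FPKM in the control (log2 -1.53 ± 0.52 SE, adjusted p 0.038). XLOC_017242, with 8.60 FPKM in drought, against 21.4 FPKM in the control, lay between 17.0 and 22.7 FPKM in the 12 other groups. XLOC_031392 and XLOC_032682 had 11.6 and 15.4 FPKM in drought, against 27.1 and 34.7 FPKM in the control. Of the nearest annotated loci, none was called with the 10 higher loci and 1 with the 11 lower ones. Over all loci 3.77% were called higher and 4.57% lower, so so few neighbours cannot show whether they respond apart from these loci.

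The split between higher and lower loci in KOZ1 at T2 depended on the scaling, as did that of all loci in the table. Summed over the table, FPKM came to 479128 in drought, against 750890 in the control, and scaling the groups to the same sum moved every log2 change by 0.65. The calls then became 34 higher and 6 lower, in place of 10 and 11. Over all loci they became 3517 higher and 545 lower, in place of 991 and 1201. All 10 higher loci and 6 of the 11 lower ones kept their call. A called change is at least 2-fold, so a shift of 0.65 on the log2 scale could not turn its direction. The shift could only enlarge the rises, so that only the lower calls were put to a trial by it. With a common median, which moved the changes by -0.12, the calls were 8 higher and 17 lower, and 8 and 11 of the original loci were among them. Over all loci the common median gave 838 higher and 1402 lower.

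Outside KOZ1 at T2 the calls were single short loci. At T1 in KOZ1, 0 of 699 loci were called higher (1 at the unadjusted p; 0.155% of all loci) and 1 lower (0.143%, against 0.303% of all loci). This was XLOC_009739, with 11.1 FPKM in drought, against 56.5 FPKM in the control (log2 -2.35 ± 0.35 SE), the only locus called in the same direction in more than 1 drought comparison. In ABR4 at T2, of 707 loci tested, XLOC_033811 was higher (458 FPKM in drought, against 221 FPKM in the control; 0.0388% of all loci called) and XLOC_024713, 133 bp on chromosome 3 (13541453 to 13541585), was lower (0 in drought, against 6.25 FPKM in the control; 0.0310% of all loci called). In ABR8 at T2 the same XLOC_024713 was higher, with 22.9 FPKM in drought, against 0 in the control, and it was the only call among 847 loci (0.0153% of all loci called higher and 0.0229% lower). No locus without an identifier was lower there, and 1 was at the unadjusted p. Without loci under 200 bp, all of these calls were lost, while KOZ1 at T2 had 20 calls. The median log2 change was -0.10 in KOZ1 at T1, 0.08 in ABR4 at T2 and 0.08 in ABR8 at T2, against 0.00, 0.03 and -0.01 over all loci.

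The difference between the drought responses at T2 was tested over loci above 0 in the 4 groups concerned, with calls at an adjusted p no higher than 0.05 and no limit on the size. Of 496 loci, 5 responded differently in KOZ1 and ABR8 (4.95% of all loci were called). Of 514 loci, 3 responded differently in KOZ1 and ABR4 (2.23% of all loci). None of 509 did so in ABR8 and ABR4 (0.0634% of all loci), with 4 at the unadjusted p. The MIR169H locus was called against both lines, XLOC_017191, XLOC_000024 and the short XLOC_009739 and XLOC_030501 against ABR8, and XLOC_000236 and XLOC_025091 against ABR4. The difference for XLOC_030501 was only -0.36 on the log2 scale and rests on narrow limits, with 212 FPKM in drought (206.8 to 217.5), against 208 FPKM in the control (202.4 to 213.1) in KOZ1, and 134 FPKM, against 102 FPKM, in ABR8. For XLOC_025091 the drought and control values were 2.67 and 18.3 FPKM in KOZ1, against 13.6 and 15.8 FPKM in ABR4. With FPKM scaled to the same sum, no difference between KOZ1 and ABR4 was called and 9 between KOZ1 and ABR8 were.

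Of the 6 loci over miRNA genes, 2 were called for drought, both in KOZ1 at T2. In Arabidopsis, miR169 acts on mRNAs of the NF-YA transcription factors and miR159 on those of GAMYB-like transcription factors. The values here measure the longer transcript over the miRNA gene, not the mature miRNA. XLOC_032595 (2898 bp, chromosome 5, 11685627 to 11688524), over MIR169H, had 0.0710 FPKM in KOZ1 T2 drought (upper limit 0.203), against 8.10 FPKM in the control (limits 4.76 and 11.4; log2 -6.83 ± 1.4 SE, adjusted p 5.2e-05). In ABR4 it had 4.79 FPKM in T2 drought, against 14.9 FPKM in the control, which was not called (log2 -1.63 ± 0.43 SE, adjusted p 0.17). In ABR8 the values were 12.5 FPKM in drought, against 13.7 FPKM in the control. The response in KOZ1 differed from that in ABR8 by -6.70 ± 1.45 SE on the log2 scale (adjusted p 0.00034) and from that in ABR4 by -5.20 ± 1.47 SE (adjusted p 0.024). All 12 other groups were at 4.79 FPKM or more, so that KOZ1 T2 drought stood apart from every other group.

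XLOC_017191 (1702 bp, chromosome 2, 1096998 to 1098699), over MIR159B, moved the other way. It had 16.1 FPKM in KOZ1 T2 drought (limits 10.03 and 22.1), against 3.32 FPKM in the control (limits 1.44 and 5.20; log2 2.28 ± 0.50 SE, adjusted p 0.00020). Its drought values were 5.90 FPKM in ABR8, against 7.18 FPKM in the control, and 4.83 FPKM in ABR4, against 3.35 FPKM in the control. The response differed from that in ABR8 by 2.56 ± 0.69 SE (adjusted p 0.0079) and from that in ABR4 by 1.75 ± 0.75 SE, which was not called (adjusted p 0.34). The 12 other groups lay between 2.83 and 7.18 FPKM.

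**Figure D5:**
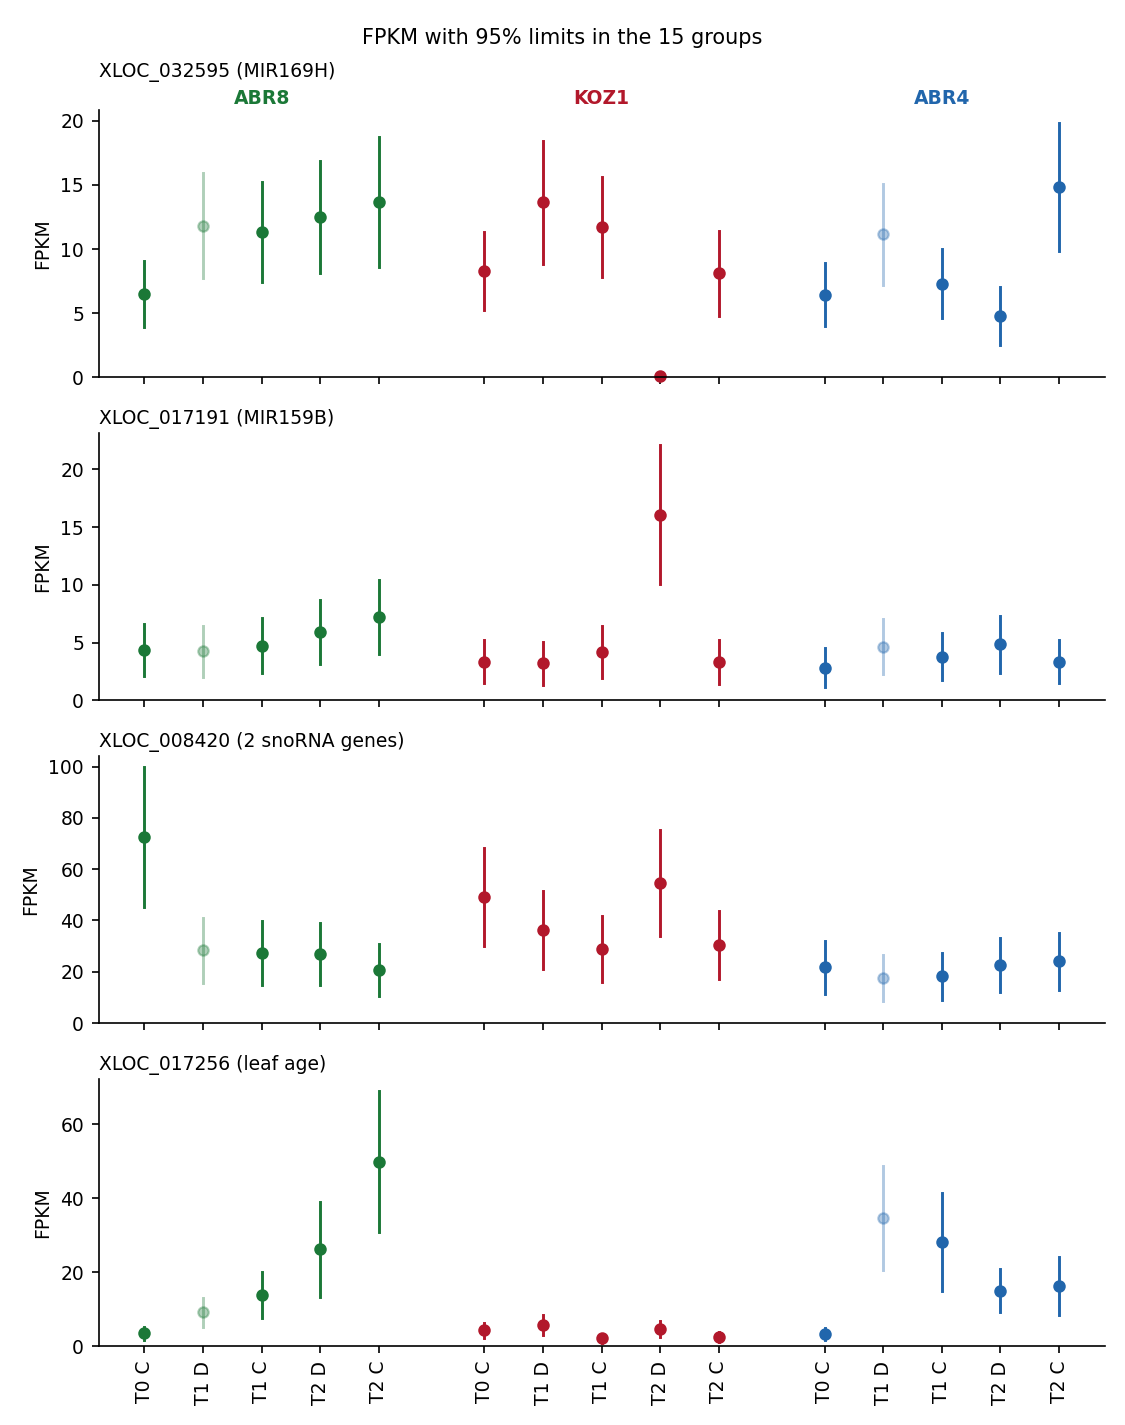
FPKM (points) with the deposited 95% limits (lines) of 4 loci in the 15 groups, with C for control, D for drought and the left-out T1 drought groups of ABR8 and ABR4 drawn pale. In KOZ1 T2 drought the MIR169H locus is at 0.0710 and the MIR159B locus at 16.1 FPKM. XLOC_008420, which overlaps snoRNA genes, is highest at T0 in ABR8 (72.4 FPKM), and XLOC_017256 reaches 49.8 FPKM in ABR8 and 16.3 FPKM in ABR4 in the T2 control.

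The other miRNA and tRNA loci did not pass the test in any of the 10 comparisons. XLOC_010374 (905 bp, chromosome 2, 7712270 to 7713174), over MIR169A, had 0.171 FPKM in T2 drought, against 1.11 FPKM in the control in ABR4, 1.71 against 3.48 FPKM in ABR8 and 1.07 against 1.39 FPKM in KOZ1. XLOC_000020 (805 bp, chromosome 1, 302223 to 303027), over MIR159C, stayed between 0.340 and 1.04 FPKM in the 13 groups. XLOC_019459 (2422 bp, chromosome 3, 37654053 to 37656474), over the lysine tRNA gene TRNAK-CUU, stayed between 3.26 and 6.38 FPKM.

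The 6 loci over snoRNA genes held 27 such genes and were chosen after their values were seen, apart from XLOC_008420. XLOC_008420 (1453 bp, chromosome 1, 57167799 to 57169251), with 2 snoRNA genes inside the lncRNA LOC100827003, had 72.4 FPKM in ABR8 at T0, against 21.8 FPKM in ABR4 (log2 1.73 ± 0.44 SE, adjusted p 0.0051), and 49.1 FPKM in KOZ1. At T2 the watered ABR8 plants had 20.7 FPKM, against 24.1 FPKM in that of ABR4. XLOC_000414 (1395 bp, chromosome 1, 4588381 to 4589775), with 4 snoRNA genes, was the strongest of the 6, with 124 FPKM in KOZ1 T2 drought, against 82.2 FPKM in the control, and 46.8 to 108 FPKM in the other groups. XLOC_020417 (2369 bp, chromosome 3, 51327991 to 51330359), with 9 snoRNA genes, had 7.59 FPKM in KOZ1 T2 drought, against 2.59 FPKM in the control (adjusted p 0.067). XLOC_006896 (2037 bp, chromosome 1, 27901626 to 27903662), with 8, had 8.29 FPKM, against 8.66 FPKM, and XLOC_028013 (1244 bp, chromosome 4, 4210113 to 4211356), with 3, had 1.95 FPKM, against 1.00 FPKM. None of the 6 was called for drought. XLOC_024720 (4207 bp, chromosome 3, 15827474 to 15831680), with 1 snoRNA gene, was missing from ABR8, where it had at most 0.0255 FPKM, against 2.33 to 4.11 FPKM in KOZ1 and 1.38 to 1.79 FPKM in ABR4.

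Growth over 8 days in watered plants was compared as the T2 control over the T0 control. In ABR4, 2 of 697 loci were higher (0.287%, against 0.614% of all loci) and 3 lower (0.430%, against 0.641%). In ABR8, 1 of 868 was higher (0.115%, against 0.909%) and 3 lower (0.346%, against 1.54%), and in KOZ1 1 of 704 was higher (0.142%, against 0.598%) and 1 lower (0.142%, against 1.33%). The median log2 change was -0.20 in ABR4 and -0.19 in ABR8, against -0.03 in both over all loci, and 0.00 in KOZ1, against 0.01 over all loci. Of these 11 calls, 4 were of loci under 200 bp, XLOC_009738 and XLOC_024713 in ABR4, XLOC_024713 in ABR8 and XLOC_009739 in KOZ1.

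The only locus called higher with age in more than 1 line was XLOC_017256 (2404 bp, chromosome 2, 42143389 to 42145792), at the protein-coding gene LOC100823161. It had 49.8 FPKM in the T2 control of ABR8, against 3.46 FPKM at T0 (log2 3.85 ± 0.46 SE, adjusted p 4.0e-13), and 16.3 FPKM in the T2 control of ABR4, against 3.20 FPKM at T0 (log2 2.34 ± 0.52 SE, adjusted p 0.0014). In KOZ1 it had 2.39 FPKM in the T2 control, against 4.29 FPKM at T0, and stayed at or below 5.73 FPKM in all KOZ1 groups. At T2 its drought value was 26.1 FPKM in ABR8, against 49.8 FPKM in the control, and 15.02 FPKM in ABR4, against 16.3 FPKM in the control, and neither was called.

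Falls with age were seen at XLOC_011601 (3583 bp, chromosome 2, 30284708 to 30288290), which had 1.01 FPKM in the T2 control of KOZ1, against 5.48 FPKM at T0 (log2 -2.44 ± 0.56 SE, adjusted p 0.0018), and 0.725 FPKM in ABR4, against 4.97 FPKM at T0 (log2 -2.78 ± 0.62 SE, adjusted p 0.0016). In ABR8 it had at most 0.0231 FPKM. XLOC_024741 (803 bp, chromosome 3, 28482721 to 28483523), listed at 0 in every KOZ1 group, had 3.06 FPKM in the T2 control of ABR4, against 59.8 FPKM at T0 (log2 -4.29 ± 0.61 SE, adjusted p 1.5e-09), with 14.0 FPKM in the T1 control and 0.847 FPKM in T2 drought. XLOC_008420, which overlaps snoRNA genes, had 20.7 FPKM in the T2 control of ABR8, against 72.4 FPKM at T0 (log2 -1.81 ± 0.45 SE, adjusted p 0.0055). XLOC_033835 (1433 bp, chromosome 5, 21398891 to 21400323), chosen after its values were seen and above 0 in ABR8 alone among the groups used, had 0.612 FPKM in the T2 control, against 4.33 FPKM at T0 (log2 -2.82 ± 0.83 SE, adjusted p 0.033). The short XLOC_009738 (108 bp, chromosome 1, 34025792 to 34025899) had 372 FPKM in ABR4 at T0 and was listed at 0 in the other 12 groups.

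Over the 10 comparisons, 857 of the 1015 loci (84.4%) were never called, against 88.8% of annotated loci. Drought calls in at least 1 comparison covered 23 loci (2.27%, against 6.88% of annotated loci), age calls 8 (0.788%, against 2.96%) and genotype calls 139, of which the shares are given above. Among the 23 loci called for drought, 4 were also restricted to or missing from a genotype, as were 306 of all 1015 loci, and 11 of the 2259 annotated loci called for drought were.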

How the data were processed

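RNA was sequenced from leaves of 45 plants, 3 for each of 15 groups. Per the labels and the methods of the study, the authors used Trim Galore 0.4.1 for trimming, mapped the reads with TopHat2 2.1.1 and Bowtie2 2.2.9 to assembly v3.0 with annotation v3.1, and ran Cufflinks 2.2.1 and Cuffdiff. The deposited FPKM of a locus is 1 value per group, which the authors estimated from 3 libraries together, with lower and upper 95% limits. Fragment counts cannot be recovered from these pooled values, so the depth behind a value is unknown and a value of 0 is given as listed at 0. Starts were moved to counting from 1.

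A standard error was the distance from FPKM to its upper limit divided by 1.96. Groups were compared by a two-sided z-test after taking FPKM to a natural log scale (delta method), or on the difference where a group was at 0, adjusted over all loci by the Benjamini-Hochberg method. This z-test measures the spread as the authors' model gives it, and a group at 0 adds no error. Positions were matched to the RefSeq gene table of assembly v3.0, where 275 of 25208 annotated loci had identical ends. Python 3.11.15, numpy 2.4.6, pandas 2.3.3, scipy 1.17.1 and matplotlib 3.10.9 were used.

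Loci were named by a rule: per comparison, up to 3 called loci with the largest rise and fall (at least 1 FPKM in both groups) and up to 2 with the highest FPKM at 0 in the other group, the 5 highest means, up to 3 per presence pattern, the longest and shortest, up to 5 called in more than 1 drought comparison and up to 5 over named RefSeq genes. The members, lists and rule were chosen with earlier results of these data known. The leaf label was not checked against marker genes, since the tables used here give no gene names for the annotated loci. Sequences of the loci were not analysed here.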

Additional observations from a re-analysis of the deposited data

Results flagged for a closer look

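The T1 drought groups of ABR8 and ABR4, which no comparison used, held signal at loci that the other groups of those lines lack. Of the loci found only in ABR8, 144 of 144 were above 0 in ABR4 T1 drought, against 1 in KOZ1 T1 drought. Of the loci found only in ABR4, 46 of 46 were above 0 in ABR8 T1 drought, against 1 in KOZ1 T1 drought. The rule that chose the loci required under 0.1 FPKM in KOZ1 T1 drought, so the low counts there were set by the choice. In the T1 drought groups of ABR8 and ABR4 the loci of the line's own set were also lower than in its T1 control, with median ratios of 0.687 in ABR8 and 0.676 in ABR4.

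The T2 drought responses differed between lines by the test of the difference at 7 loci, given here as log2 differences. KOZ1 minus ABR4 was -5.19 for XLOC_000236, -2.56 for XLOC_025091 and -5.20 for XLOC_032595. KOZ1 minus ABR8 was -2.53 for XLOC_000024, -3.70 for XLOC_009739, 2.56 for XLOC_017191, -0.36 for XLOC_030501 and -6.70 for XLOC_032595. XLOC_009739 and XLOC_030501 are under 200 bp, and the limits of XLOC_030501 are narrow.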

How the results depend on the processing

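No paired analysis was possible because the deposited values pool the libraries of a group, and for the same reason no replicate could be left out. The unadjusted p gave 3 calls in KOZ1 at T1, 52 in KOZ1 at T2, 6 in ABR4 at T2 and 5 in ABR8 at T2, 305 for ABR8 over ABR4, 168 for KOZ1 over ABR4 and 286 for ABR8 over KOZ1, 14, 20 and 6 with age in ABR4, ABR8 and KOZ1, and 14, 20 and 4 differences of response for KOZ1 minus ABR4, KOZ1 minus ABR8 and ABR8 minus ABR4. Calling by limits that do not overlap gave 308, 154 and 288 genotype calls in that order, and 4 and 3 for drought in ABR4 and ABR8 at T2. Adjusting over the 10 comparisons together gave 2 calls in ABR8 at T2, and a test on the difference in FPKM gave 2 with age in ABR8. The same sum gave 40 calls in KOZ1 at T2, 2 in ABR8 at T2, and 0 and 9 differences of KOZ1 minus ABR4 and KOZ1 minus ABR8. The next alternatives were chosen after seeing the data, as were all those for the differences of response. Without loci under 200 bp there were 0 drought calls in KOZ1 at T1 and in ABR4 and ABR8 at T2, 3 and 1 age calls in ABR4 and KOZ1, and 3 differences for KOZ1 minus ABR8. A standard error of at least 0.2 of FPKM left 1 call for drought in ABR4, 1 with age in KOZ1 and 1 difference for KOZ1 minus ABR4. With loci above 0 in both groups only, 25, 8 and 22 genotype calls remained, 1 and 0 for drought in ABR4 and ABR8 at T2, and 3 with age in ABR4. Presence patterns were 54 with all 15 groups and 211 to 374 under the other rules. All other counts stayed within 1.5 times. Apart from what each alternative removes, the cause was not tested.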
